A study of Mus musculus with 8 samples.

Results

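The mouse miRNAs named miR-297, miR-466, miR-467 and miR-669 were followed in basal progenitors of the embryonic cortex. Every probe on the array whose miRNA name starts with one of these 4 names followed by a letter, a star, a hyphen or the end of the name was taken, whatever its signal. This gave 39 miRNAs, read by 106 probes, of 611 mouse miRNAs read by 1759 probes. By name they were 3 of miR-297, 14 of miR-466, 10 of miR-467 and 12 of miR-669.

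Total RNA came from wild-type cells sorted by flow cytometry as basal progenitors, which divide away from the ventricle and give rise to cortical neurons. It was labelled with the dye Cy3 and put on one-colour Agilent miRNA arrays, 4 arrays for embryonic day 13 (E13) and 4 for embryonic day 16 (E16). The design text counts 4 biological replicates and 3 litters per stage, so some replicates of a stage may share a litter. The comparison asks how miRNA levels in basal progenitors differ between the stages. The strain and the sorting gate are not given in the sources used here.

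Mature miRNAs are short RNAs that guide silencing proteins to messenger RNAs, mainly through the seed, bases 2 to 8 from the 5′ end. A long rodent cluster of these 4 families lies in an intron of Sfmbt2, a Polycomb-group gene that is expressed from the paternal allele in the placenta. Its hairpins arose by repeated duplication, and many hold alternating U and G or A and C. In the RefSeq annotation of GRCm38.p6, 71 of 81 genes of these families lie inside Sfmbt2 on chromosome 2 and 10 lie elsewhere. The members read on the array include some of those outside. The probe placements in the deposited files (mm9) put 31 members on chromosome 2 alone and 8 with a site on another chromosome.

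The probes carry the feature by which the members were divided, a run in which 2 different bases alternate. A member was classed as holding a repeat when the longest such run in any of its probes had at least 6 bases. By this measure 29 members held a repeat and 10 did not. The probes of the 6 members bright enough to test are printed 5′ to 3′ with the longest run in capitals, because these runs and the bases the probes share bear on every value below.
miR-466f-3p: gtgtgtaTGTGTGTGTG
miR-466g: TGTGTGTGcatgtgtc
miR-466i: tagtgtgtaTGTGTGTGTG
miR-467f: tgtagGTGTGTGTGTGT
miR-669f: atacGTGTGTGTGTatgt
miR-669n: acacacatcCACACACAa

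The whole 17-base probe of miR-466f-3p lies inside the 19-base probe of miR-466i, so the signals of these 2 probes do not stand for separate RNAs. The T and G probes shared 8 bases in a row where miR-466g was one of the pair and 10 in the remaining pairs. The A and C probe of miR-669n shared at most 3 bases in a row with any of them. A longest run of T and G in a probe reads a miRNA with alternating A and C, and a run of A and C reads one with alternating U and G.

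The deposited files place the miR-466g probe at chr2:10436275-10436289 and the miR-669f probe at chr2:10388918-10388934, each 1 base short of the probe (mm9). RefSeq has Mir466g and Mir669f inside Sfmbt2, and likewise Mir466f-1, Mir466f-2 and Mir466f-3. The RefSeq genes of the other 3 tested members lie outside Sfmbt2. The miR-466i probe is placed at chr13:17839390-17839407 (mm9), and RefSeq has Mir466i within Cdk13, a gene for a cyclin-dependent kinase. The miR-467f probe is placed at chr11:69448987-69449002 (mm9), and Mir467f lies within Fxr2, a gene for an RNA-binding protein. Mir669n lies within Slc30a7, a gene for a zinc transporter, on chromosome 3. The deposited files place the miR-669n probe at 2 sites, on chromosomes 2 and 3, so its signal is not tied to either. Whether a host gene and its miRNA share a strand or a transcript was not analysed here.

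RefSeq mature sequences were matched by name for 6 members (GRCm38.p6), 3 of them tested. They are printed with the seed in capitals to show that these 3 do not share one.
miR-466i-3p: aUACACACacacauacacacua
miR-467f: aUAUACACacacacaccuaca
miR-669n: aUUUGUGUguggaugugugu

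The probe of miR-466i pairs with bases 4 to 22 of miR-466i-3p, and the miR-466f-3p probe also pairs with miR-466i-3p in full. The miR-467f probe pairs with bases 5 to 21 of its miRNA and the miR-669n probe with bases 3 to 20. In these 3 the paired stretch ends at the 3′ end of the miRNA and leaves out the first bases of the seed.

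Most members gave no signal that could be told from the array's background. The scanner flags each spot that is well above its background, and a probe was taken as above background on an array with this flag on at least 0.5 of its spots. By that measure 27 of the 39 members were well above background on none of the 8 arrays, and 12 on at least 1. A miRNA was tested when a probe reached this on at least 4 arrays, which 6 members did (miR-466f-3p, miR-466g, miR-466i, miR-467f, miR-669f and miR-669n), against 153 of all 611 mouse miRNAs (25.0%). The filter does not use stage. However, miR-466g passed on 4 E13 arrays and 1 E16 array and miR-669n on 3 and 2, so their E13 arrays did more to bring them in. Of the miR-297 members, 0 of 3 were above background on any array, against 4 of 14 of miR-466, 5 of 10 of miR-467 and 3 of 12 of miR-669.

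All 6 tested members held a repeat, and 0 of the 10 members without one were tested. Among these 10, miR-467b was well above background on E16 replicate 1, with a processed signal of 9.17, and the other 9 on no array. The class that was measured was narrower than the repeat itself. Of 15 members with a run of at least 8 bases, 6 were tested and 10 were above background on at least 1 array. Of 14 members with a run of 6 or 7 bases, 0 were tested, and miR-466a-3p alone was above background, on E13 replicate 3 (14.5).

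Members with runs of T and G were measured more often than those with A and C, but their runs were also longer. Runs of at least 10 bases were held by 4 members with T and G, 4 of them tested, and 1 with A and C, not tested. Among members with runs of at least 8 but under 10 bases, miR-466g of T and G and miR-669n of A and C alone were tested. Letters and run length thus cannot be told apart here. Of 9 members with a run of at least 8 bases of T and G, 5 were tested, and their mean processed signals over the 8 arrays ran from 3.26 to 58.3 with a median of 22.7 over the 9. Of 6 members with such a run of A and C, miR-669n was tested, with means from −0.332 to 12.7 and a median of 3.03 over the 6. Outside the members the 3 miRNAs with a run of at least 8 bases all held A and C, and all 3 were tested (miR-574-5p, miR-1187 and miR-672). Among the members the longest run of A and C, in miR-466c-5p, came with no signal above background. The probe of miR-466c-5p is printed because its run is as long as those of miR-466f-3p, miR-466i and miR-669f.
miR-466c-5p: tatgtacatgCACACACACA

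Its processed signal was 2.87, 4.42, 7.42 and 6.26 on E13 replicates 1 to 4 and 3.97, 8.58, 3.21 and 2.84 on E16 replicates 1 to 4. None of these was well above background. The 4 members with a T and G run of at least 10 bases (miR-466f-3p, miR-466i, miR-467f and miR-669f) were above background on all 8 arrays, with means from 35.4 to 58.3. Because levels of different probes are not comparable, these are brightnesses of probes and not an order of abundance.

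**Figure D1:**
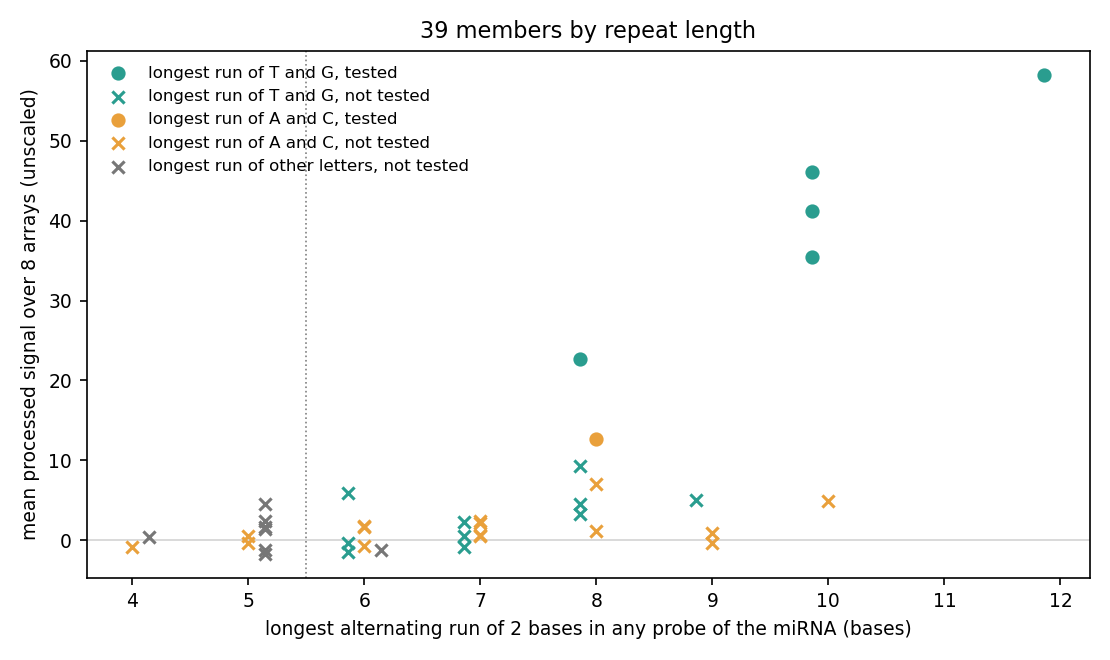
Mean processed signal over 8 arrays (vertical axis, unscaled) against the longest alternating run in bases in any probe (horizontal axis) for the 39 members. Colours give the letters of the run, filled points are the 6 tested members, and the dotted line is the limit of 6 bases. The tested members all have runs of 8 or more, while 1 member with a run of 10 of A and C lies at 4.95.

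Over the whole array a repeat as such did not go with detection. Of 62 mouse miRNAs with a run of at least 6 bases 15 were tested (24.2%), against 138 of 549 without (25.1%). With a run of at least 8 bases 9 of 18 were tested (50%), 6 of them members. Members make up 15 of those 18, so the array holds few other miRNAs with such runs.

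The members with the most placements were not among the tested ones. In the deposited placements 6 members have 8 or more sites. Of these, 3 were above background on at least 1 array and 0 were tested. However, miR-466f-3p, with 3 sites on chromosome 2, was tested. The miR-467a-1* probe, with 17 sites and a run of 8 bases, was above background on 2 arrays, E13 replicate 3 (21.3) and E16 replicate 2 (17.5). The miR-669a probe, with 13 sites, was above background on E13 replicate 3 (11.8), and so were miR-467b* (11.8) and miR-467g (12.1). By position, 3 of the 31 members placed on chromosome 2 alone were tested and 3 of the 8 with a site elsewhere.

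Array by array, 5, 6, 11 and 6 members were well above background on E13 replicates 1 to 4, and 6, 7, 4 and 4 on E16 replicates 1 to 4. The means were 7 ± 2.71 at E13 and 5.25 ± 1.5 at E16 (SD, n = 4 each), and the stages overlap. E13 replicate 3 stood apart from the other E13 arrays, and it also had the most mouse miRNAs above background of all 8 arrays (206, against 76 to 170 on the others). The count of members therefore moved with how much of the array was bright, and the part of that in the count was not tested.

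Signals were then set on one scale. The scale of an array was the 75th percentile of the processed signals of 126 probes, those above background on all arrays. Signals were divided by it and log2 was taken. A scaled log2 value of −2 thus means a brightness a fixed factor under that percentile, and values under −5.96 were set to this floor. In RNA from sorted cells, fewer cells holding a miRNA and less of it per cell cannot be told apart. Stage and slide row also cannot be told apart, since row 2 held the E13 arrays and row 1 the E16 arrays.

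On this scale 2 of the 6 tested members were lower at E16 (miR-669f and miR-669n) and 0 were higher, at an adjusted p under 0.05 by limma over all 153 miRNAs. Of all 153, 26.1% were called lower and 7.19% higher, so 2 of 6 is near the background of lower calls. At an unadjusted p under 0.05, 4 members were lower and 0 higher, against 34.6% and 10.5% of the 153 miRNAs (limma). The median difference, E16 minus E13, was −1.15 for the 6 members and −0.40 for all 153, a gap of −0.75. Over the 4 members above background on all 8 arrays the median was likewise −1.15, against −0.15 for the 75 miRNAs that met this. Of the 4, 1 was called lower (miR-669f), against 13.3% of the 75. At an unadjusted p under 0.05, 2 of the 4 were lower, against 25.3% of the 75 (limma). With the 75th percentile taken over all mouse probes the members had a median of −0.33 and all miRNAs 0.41, a gap of −0.74. Under that scaling 0 members were called by limma (10.5% of the 153 were lower), and 0 at an unadjusted p under 0.05 (11.1% of the 153), and the split over all miRNAs turned from 40 lower and 11 higher to 16 lower and 47 higher. The calls thus changed with the choice of percentile. The gap between the members and all miRNAs, −0.75 and −0.74, could hardly change. Dividing whole arrays by another percentile moves the differences of all miRNAs alike, apart from the floor, so the like gaps are no separate support.

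For miR-669f the scaled log2 signal was −2.64, −3.02, −2.58 and −2.48 on E13 replicates 1 to 4. It was −4.16, −3.58, −3.79 and −3.07 on E16 replicates 1 to 4. With this probe, of 18 bases, every E16 array lay under every E13 array, E16 replicate 4 by the least. With the other, of 19 bases, the stages overlapped, E16 replicate 4 (−3.53) lying above E13 replicate 2 (−3.75). The values that follow are of the 18-base probe. The mean fell from −2.68 ± 0.23 to −3.65 ± 0.46 (SD, n = 4 each), a difference of −0.97 (SE 0.24, adjusted p = 0.0138, limma), or 1.95-fold higher at E13.

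The miR-669n probe gave −4.28, −4.51, −4.46 and −4.34 at E13 and −5.93, −5.06, −5.62 and −4.66 at E16 (scaled log2, replicates 1 to 4). Here too the stages did not overlap, but E16 replicate 1 came close to the floor of −5.96. E13 replicate 1 and E16 replicates 3 and 4 were not above background. With the other probe, of 17 bases and above background on 2 arrays, the stages overlapped. There E16 replicate 4 (−4.76) lay above E13 replicates 2 (−5.08) and 4 (−4.80). With the probe used, the difference was −0.92 (SE 0.27, adjusted p = 0.0259, limma), or 1.89-fold higher at E13. Only 2 of 6 members had all E16 arrays under all E13 arrays, against 30.7% of the 153 miRNAs. The miR-669n call was lost without any 1 of the E13 replicates 1 to 4 (adjusted p = 0.0895, 0.0538, 0.0671 and 0.0795, limma) and without E16 replicate 3 (0.0758). The miR-669f call was lost without E13 replicate 1 (adjusted p = 0.0527, limma) or E13 replicate 4 (0.0546).

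The remaining 4 tested members had as large differences and did not pass. The scaled log2 signal of miR-467f, the brightest, was −2.25, −2.48, −1.94 and −1.83 at E13 and −5.12, −3.21, −3.40 and −1.46 at E16. E16 replicate 1 was far below every E13 array, and E16 replicate 4 was above all of them. The difference was −1.17 (SE 0.64, 95% interval −2.62 to 0.28, adjusted p = 0.178, limma).

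For miR-466f-3p the values were −2.50, −2.86, −2.19 and −2.21 at E13 and −5.09, −3.49, −4.03 and −2.19 at E16, and the difference was −1.26 (SE 0.53, adjusted p = 0.0934, limma). For miR-466i, whose probe contains the former, they were −2.92, −3.21, −2.64 and −2.66 at E13 and −5.53, −3.78, −4.09 and −2.53 at E16, with a difference of −1.13 (SE 0.53, adjusted p = 0.136, limma). In both, 3 E16 arrays lay under the E13 arrays and E16 replicate 4 lay among or above them.

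The miR-466g probe gave −3.49, −3.88, −3.18 and −3.38 at E13 and −5.96, −4.35, −5.43 and −3.41 at E16, the first of these at the floor. Its difference was −1.30 (SE 0.50, adjusted p = 0.0721, limma). The probe was above background on E16 replicate 2 alone at that stage, so the size is not exact, and the miRNA had passed the filter through its E13 arrays. The values of E16 replicates 1, 3 and 4 are of signals not above background. The miR-466f-3p, miR-466g, miR-466i and miR-467f intervals reach from −2.46, −2.44, −2.34 and −2.62, so these data do not show that these miRNAs stayed level.

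**Figure D2:**
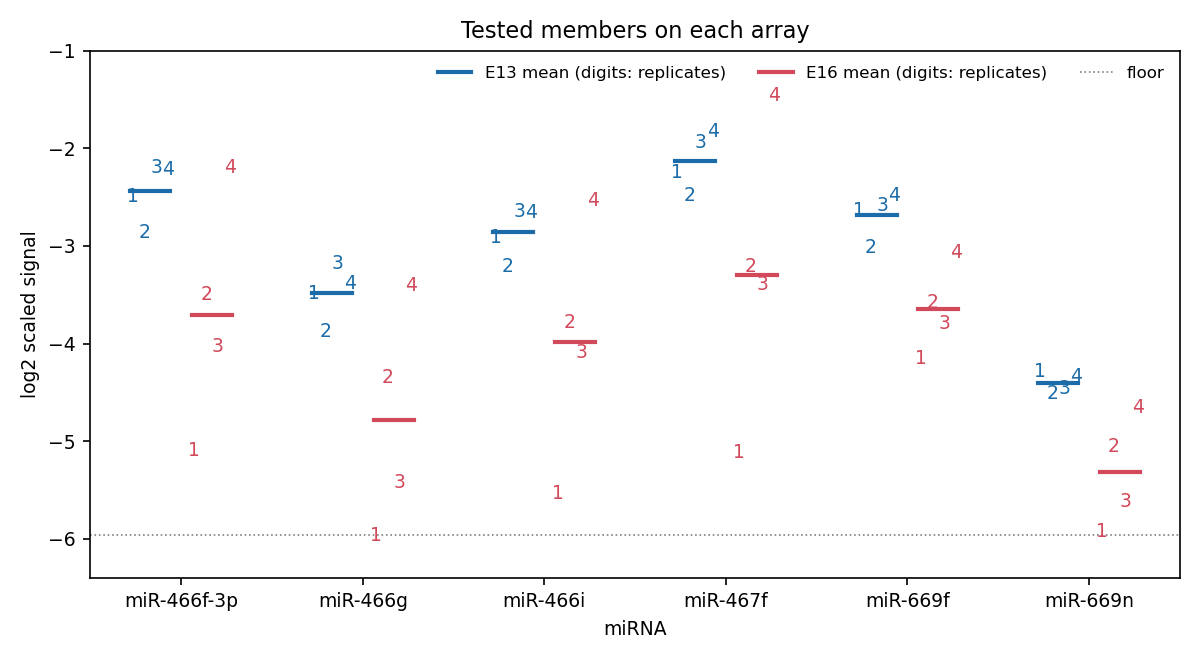
Scaled log2 signal (vertical axis) of the 6 tested members on each array. Digits are the replicate numbers, bars the means of 4 arrays, blue E13, red E16, and the dotted line the floor. In the 4 members above background on all arrays, which leaves out miR-466g and miR-669n, E16 replicate 1 is lowest and E16 replicate 4 highest of the E16 arrays. In all 6 the E13 arrays lie within 0.23 to 0.70 of each other.

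The spread among the E16 arrays was the members' clearest trait. The SD over the 4 E16 arrays was 1.49 for miR-467f, 1.23 for miR-466i, 1.21 for miR-466f-3p, 1.14 for miR-466g, 0.57 for miR-669n and 0.46 for miR-669f. The median of the 6 was 1.17 (1.22 over the 4 above background on all 8 arrays), against 0.28 over the E13 arrays for the same 6. Over all 153 miRNAs the median SD was 0.37 at E16 and 0.26 at E13. For miR-466g and miR-669n the SD includes arrays not above background. Of the 9 miRNAs with an E16 SD above 1, 4 were members, and the other 5 were miR-690, miR-1187, miR-709, miR-574-5p and miR-33. This is a description, as the spread was known when the members were chosen. E16 replicate 1 lay on slide 1, replicates 2 and 3 on slide 2 and replicate 4 on slide 3. The E13 arrays lay on slides 2 and 3 alone. Except between replicates 2 and 3, the E16 spread cannot be told apart from differences between slides.

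The 4 members above background on all 8 arrays ranked the E16 arrays alike, with replicate 1 lowest, then 3, 2 and 4. Of the 75 miRNAs above background on all 8 arrays 13 (17.3%) had this order, including the 4. The values of miR-466g and miR-669n fell in the same order, but 3 and 2 of their E16 arrays, E16 replicate 4 among them, were not above background. The step from E16 replicate 1 to E16 replicate 4 had a median of 2.95 on the log2 scale over the 4 members and of −0.36 over the 75. It was 3.65 for miR-467f, 3 for miR-466i, 2.90 for miR-466f-3p and 1.09 for miR-669f. These are not 4 separate measurements, since the probes share 10 to 17 bases in a row. From low to high the E16 arrays were those of slides 1, 2, 2 and 3. The step from E16 replicate 1 to E16 replicate 4 thus cannot be told apart from slide.

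Between spots of one probe on one array the SD of log2 signal had medians from 0.12 (miR-466f-3p) to 0.22 (miR-669n) over the 8 arrays. On E16 replicate 4 it reached 1.25 for miR-669n, more than the SD of 0.57 of that miRNA between E16 arrays. The median E16 SD of the 6 was 0.82 without E16 replicate 4 and 0.88 without E16 replicate 1.

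Other miRNAs were split the same way. Outside the members 9 tested miRNAs held a repeat, and in 2 of them, miR-574-5p and miR-1187, the run was long and the E16 arrays had the same order. Their probes are printed because they hold runs of A and C, the other letters than those of the 5 brightest members.
miR-574-5p: acacactCACACACACAC
miR-1187: ttacacacatACACACACA

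They share 9 bases in a row with each other, 8 each with miR-669n, and at most 4 with the T and G probes. The scaled log2 signal of miR-574-5p was −3.89, −2.13, −2.94 and −0.82 on E16 replicates 1 to 4 (SD 1.30), against −1.27, −1.83, −1.02 and −0.79 at E13 (SD 0.45). For miR-1187 it was −4.97, −3.06, −3.72 and −1.52 at E16 (SD 1.44), against −2.26, −2.75, −1.96 and −1.66 at E13 (SD 0.46). Their differences between stages, −1.22 and −1.16, were close in size to those of the members and likewise did not pass (adjusted p = 0.136 and 0.178, limma).

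The remaining non-member with a run of 8 bases, miR-672, did not follow, with an E16 SD of 0.15. Of the 6 with a run of 6 or 7 bases 0 had the order. Of these, miR-377, miR-574-3p and miR-300 had 3, 2 and 1 of their E16 values at the floor, so their full order and spread are not known. In miR-377 and miR-300 E16 replicate 1 was the highest of the E16 arrays, where the order has it lowest. Among the 6 let-7b, a miRNA that accumulates as cells leave the progenitor state, was higher at E16 by 2.66 (SE 0.28, adjusted p = 7.93e-05, limma). Called lower were miR-300 (−2.16), miR-574-3p (−1.30) and miR-377 (−1.63), sizes that are not exact, with adjusted p of 0.000415, 0.00315 and 7.32e-05 (limma). The differences of miR-328 and miR-423-5p, 0.11 and −0.72, did not pass. Conversely, miR-690 and miR-709 have no repeat (longest runs of 4 and 3 bases) and had steps from E16 replicate 1 to replicate 4 of 3.82 and 3.35. The order was thus also found without a repeat.

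**Figure D3:**
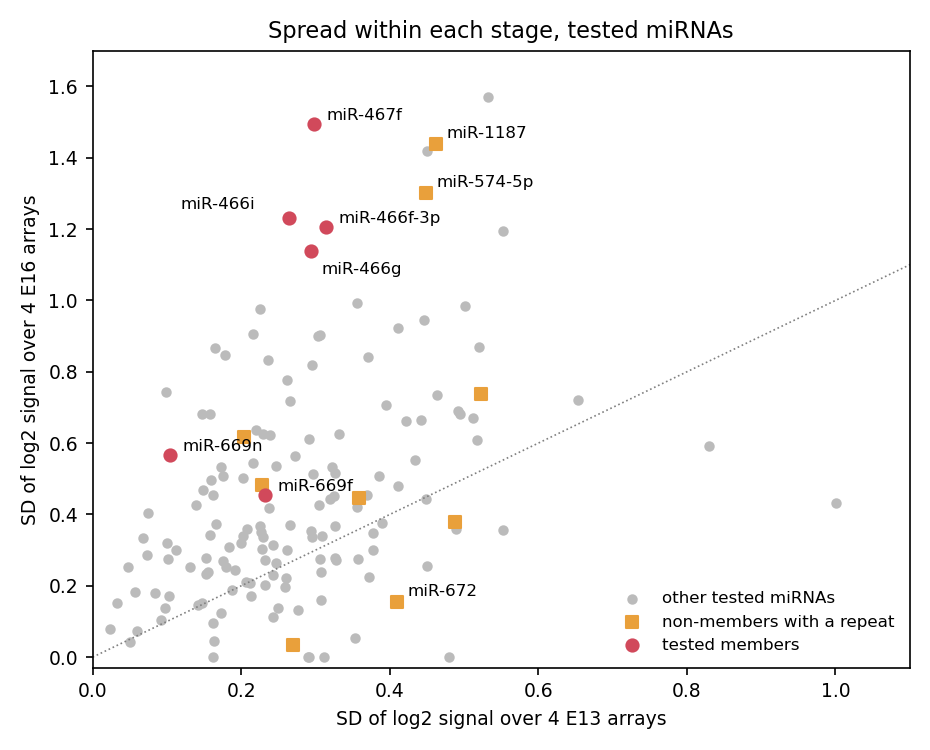
SD of the scaled log2 signal over the 4 E16 arrays (vertical axis) against that over the 4 E13 arrays (horizontal axis) for the 153 tested miRNAs. Red points are the members, orange squares non-members with a repeat of at least 6 bases, and the dotted line marks equal SDs. Members miR-467f, miR-466i, miR-466f-3p and miR-466g lie at E16 SDs from 1.14 to 1.49 with E13 SDs from 0.26 to 0.31.

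Before scaling, the tested members did not rank the E16 arrays in the order 1, 3, 2 and 4. For miR-466f-3p the processed signal was 17.8, 66.4, 17.2 and 23.8 on E16 replicates 1 to 4, so replicates 1, 3 and 4 lay close together and replicate 2 was bright. The 75th percentile of these arrays was 609, 748, 282 and 109. E16 replicate 4, the highest after scaling, had the lowest percentile of the 8 arrays, and E16 replicate 1 had the second highest.

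At E13 the signal of miR-466f-3p was 28.8, 43.5, 107 and 63.4, and the percentile ran from 162 to 490. Both were lowest on E13 replicate 1 and highest on E13 replicate 3. For miR-467f the unscaled signal was 34.2, 56.6, 128 and 82.9 at E13 and 17.5, 81.0, 26.8 and 39.5 at E16. The signal of miR-669f was 26.0, 39.2, 81.9 and 52.5 at E13 and 34.2, 62.7, 20.4 and 13 at E16. There it ranked the arrays as the percentile did, with E16 replicate 2 highest and E16 replicate 4 lowest, and so did miR-669n.

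**Figure D4:**
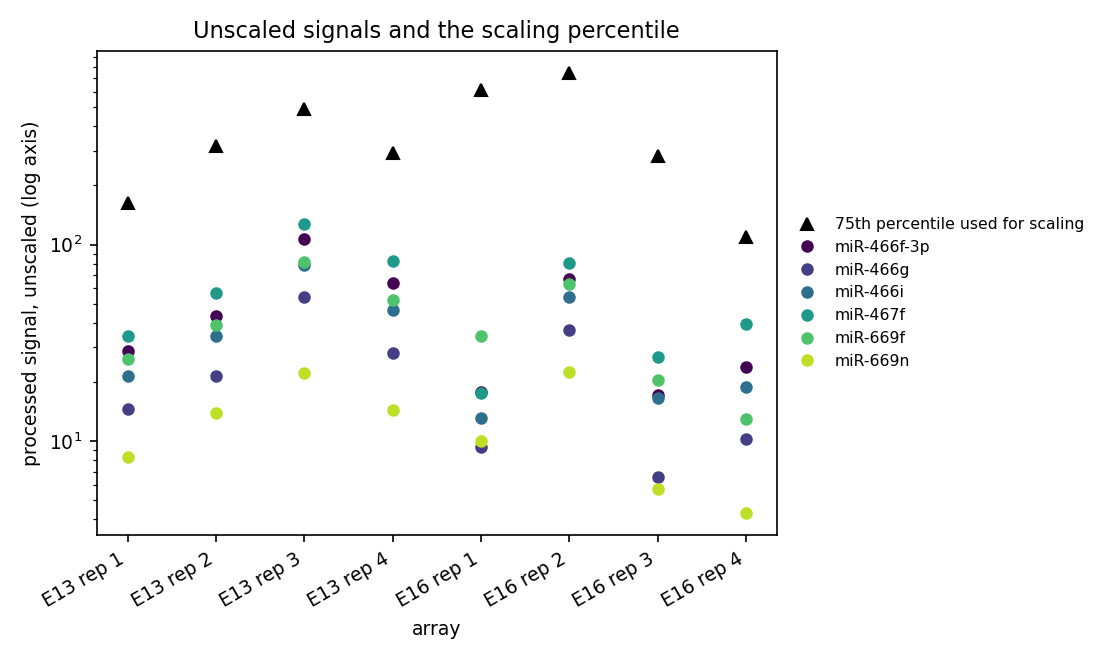
Processed signal before scaling (vertical log axis) of the 6 tested members on each array (horizontal axis), with black triangles for the 75th percentile used for scaling. Across E16 replicates 1, 3 and 4 the percentile ran from 609 to 109 while miR-466f-3p ran from 17.2 to 23.8.

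Without any scaling, an alternative chosen after seeing the data, the spread of the members was below that of most miRNAs. Their median E16 SD was then 0.92, under the 1.15 of all 153 miRNAs. Their E13 SDs were 0.58 to 0.81. The median difference between stages was −0.92, against 0.0026 for all 153, and 0 members were called by limma (0 of 153 miRNAs were lower and 1 was higher). At an unadjusted p under 0.05, 0 members and 5 of all 153 miRNAs were lower (limma). The members thus lay under the median of all miRNAs with scaling and without it, which is not a separate check. Scaling moves the differences of all miRNAs alike, apart from the floor. The median E16 SD of the members was above that of all miRNAs with scaling and below it without. Unscaled SDs also hold the differences in brightness between arrays. Whether RNA amount, labelling or the cells differed between the E16 arrays was not tested.

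The difference between stages also depended on which E16 array was in. Without E16 replicate 4 all 6 members were called lower, against 30.1% of the 153 miRNAs. The 6 include the 4 above background on all 8 arrays, and miR-466g and miR-669n, which had entered more through their E13 arrays. The median was then −1.62 for the members and −0.22 for all. Without E16 replicate 1 the median was −0.74, and miR-669f and miR-669n were called, against 29.9% of the 137 miRNAs tested there. Within slide 2, which holds E13 replicates 1 and 2 and E16 replicates 2 and 3, the median was −0.94, and miR-467f was called (adjusted p = 0.0314, limma), against 16.3% of the 153 miRNAs. Within slide 3, which holds E13 replicates 3 and 4 and E16 replicate 4, the median was −0.06. There miR-467f was 0.42 higher at E16, miR-466i 0.12 and miR-466f-3p 0.0085, values from a single E16 array and given with no test. Slide 1 holds E16 replicate 1 alone. All 153 miRNAs had a median of −0.28 in slide 2 and −0.76 in slide 3, so the median of the members lay under that of all miRNAs in the former and above it in the latter. With slide as a block the median of the members was −0.66 and that of all 153 miRNAs −0.45, a smaller gap of −0.20. There miR-669f was called (adjusted p = 0.0228, limma), against 25.5% of the 153 miRNAs.

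Different probes of one miRNA gave a check within the array. The 4 probes of miR-466f-3p are 14 to 17 bases long, and their mean processed signals at E13 were 5.25, 16.2, 32.5 and 60.7 with rising length. At E16 they were 3.17, 8.66, 16.1 and 31.3. The longest run rose too, from 7 bases in the 14-base probe to 10 in the 17-base probe. Length and run thus cannot be told apart in these probes. The ratio of the 17-base to the 16-base probe was 1.75 to 2.34 over the 8 arrays, and that of the 2 probes of miR-467f 1.48 to 1.82. Against the dimmer short probes the ratio varied more, from 3.17 to 6.33 for the 15-base and 6.87 to 50.2 for the 14-base probe of miR-466f-3p. The 4 probes of miR-466g, with the same run of 8 bases in each, rose from 14.2 for 13 bases to 29.6 for 16 bases at E13, and the ratio of the 16-base to the 14-base probe ran from 1.35 to 4.31.

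The 2 probes of miR-669f did not give the same picture. The 18-base probe used above was 1.38 to 2.11 times as bright as the 19-base probe on 7 arrays and 2.77 times on E16 replicate 1, where they read 34.2 and 12.3. With the 19-base probe the difference between stages was −1.18 rather than −0.97, and the E16 SD was 0.89 rather than 0.46. The small spread of miR-669f among the members, and the lack of overlap between its stages, thus hold for 1 of its 2 probes.

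**Figure D5:**
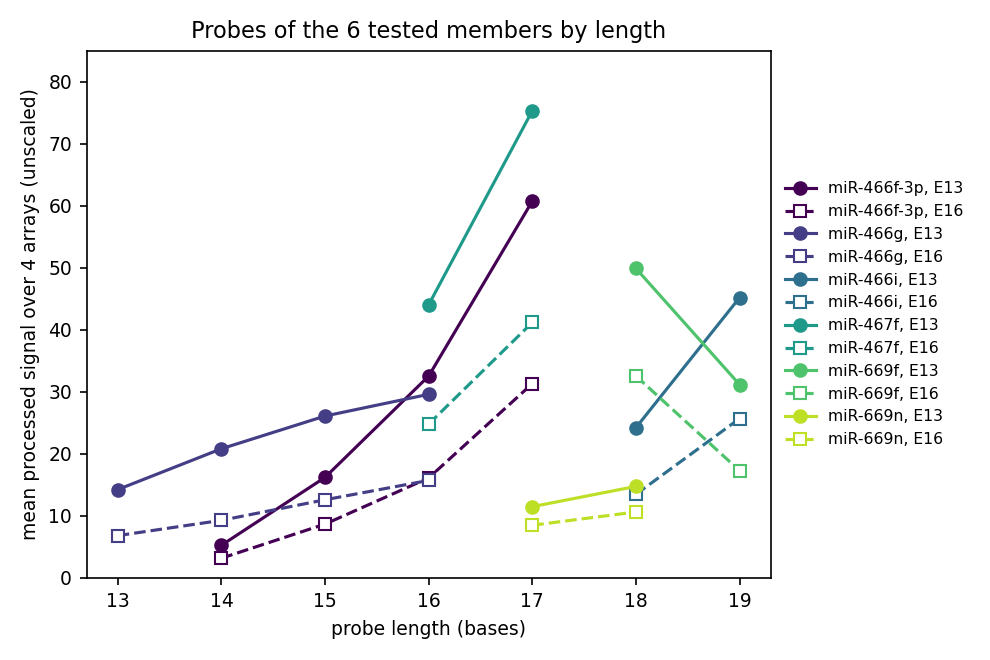
Mean processed signal over 4 arrays (vertical axis, unscaled) against probe length in bases (horizontal axis) for each probe of the 6 tested members, filled circles for E13 and open squares for E16. In miR-466f-3p the mean at E13 rises from 5.25 to 60.7 with length, and the longest run rises with length too. In miR-669f the shorter probe is the brighter.

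The label of the cells was checked in part on marker miRNAs. The neural list pools markers of progenitors and of neurons, so it cannot tell basal progenitors from neurons. Of 5 markers of neural progenitors and neurons (miR-9, miR-9*, miR-124, miR-128 and miR-137), 4 were above background on all 8 arrays and all 5 on at least 1. Their summed processed signal ran from 2324 to 8457 at E13 and from 1226 to 11619 at E16. All 3 erythroid markers, 3 of other blood cells and microglia, 2 of endothelium and 6 of mesenchyme and muscle were above background on no array, with summed signals of at most 4.54 on any array. The miR-290 to miR-295 cluster, the other large miRNA cluster known from embryonic stem cells and placenta, had 14 miRNAs on the array and 0 above background on any array.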

How the data were processed

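The authors deposited 1 scanner file per array (Agilent Feature Extraction 10.7.3.1, mm9 placements, per the file headers) with mean, background and background-subtracted processed intensity and other columns (0 or 1 flags) per spot, unscaled. The deposited value table holds log2 values of 1187 spots, read as normalized processed signals because each column ranks the spots as the array's processed signal does (Spearman correlation 1). It was an alternative. The sources used here do not give its normalization. Per the labels' protocols, 100 ng of total RNA was labelled.

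Control spots were dropped, and so were outlier-flagged spots (1.96% to 3.89% of all spots per array, controls included). No spot was saturated. Spots were averaged per probe, scaled as described, floored at percentile 1 of scaled signals well above background (log2 −5.96), and the probe with the highest mean stood for its miRNA. The number of arrays limits the precision. Stages were compared with limma 3.58.1 in R 4.3.3 (two-sided, stage only, Benjamini-Hochberg over 153 miRNAs, threshold 0.05). The fit was also run on simulated data in which each miRNA had the same SD in both stages. Those data do not cover the unequal spread of the tested members (median SD 1.17 at E16 and 0.28 at E13). P-values measure the spread between these arrays, which may share litters. The members and lists, the marker lists included, were chosen with earlier results of these data known. The miRNAs named are all tested members, up to 8 further members above background, and up to 8 non-members with a repeat by highest mean. The other miRNAs named, miR-466c-5p, miR-377, and those with an E16 SD above 1, were chosen after their values were seen. Slides were numbered from the barcodes in the files. Replicate numbers did not pair the stages: correlations of same-numbered deviations were −0.08, 0.07, 0.27 and −0.13.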

Additional observations from a re-analysis of the deposited data

Results flagged for a closer look

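Among 18 groups of 4 arrays screened for an array far from the others, 2 had one, and chance gives about 1 in 20. E13 replicate 3 had 11 members well above background, against 5 to 6 on the other E13 arrays. The median processed signal of the 6 tested members before scaling was 58.5 on E16 replicate 2, against 15.3 to 16.9 on the other E16 arrays. After scaling, E16 replicate 2 lay between the other E16 arrays (median log2 −3.68).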

How the results depend on the processing

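Calls of single members changed with the settings. Against 2 members called lower with limma, 0 were called with the percentile over all mouse probes, with normexp correction and without scaling (added after seeing the data). Of the 153 miRNAs 10.5%, 1.31% and 0% were called lower there, so in the latter 2 hardly any miRNA was called. In these 3 settings 0 members were lower at an unadjusted p under 0.05 either, against 11.1%, 5.23% and 3.27% of the 153 (limma). With quantile normalization, the deposited value table, the filter of all 8 arrays, slide as a block and within slide 2, 1 member was called. The shares of all tested miRNAs called lower there were 17.6%, 12.8%, 13.3%, 25.5% and 16.3%. Calls within slide 3, which has a single E16 array, are left out. The 2 called were miR-466g and miR-669f with the mean of all probes, and miR-467a-1* and miR-669a, above background on 2 arrays and 1, with no filter. Of all miRNAs tested there 25.5% and 7.36% were called lower. With the total signal per miRNA 3 members were called, against 25.3% of 154 miRNAs. The replicate block left 1 called (miR-669n had an adjusted p of 0.0504, limma), against 22.9% of the 153. Leaving out 1 array gave 0 to 6 members called, against 14.9% to 30.1% of the miRNAs tested. The median difference of −1.15 became −0.060 within slide 3, where miR-466f-3p, miR-466i and miR-467f turned to 0.0085, 0.12 and 0.42. The median E16 SD of 1.17 became 0.70 in the deposited value table (4 members) and 0.30 within slide 2 (2 E16 arrays). With no filter, the median difference and the median E16 SD of members with a repeat were both 0, most values being at the floor. Members higher at E16 with limma were 0 in every setting with more than 1 array per stage, at an adjusted or an unadjusted p under 0.05. Members without a repeat had a value with no filter alone, with 79 of 80 values at the floor, so their difference and spread are not known. Repeat limits of 5 and 8 bases changed no tested member's class. Of 19 to 21 alternatives per member, the difference of miR-669f lost its call in 7 and that of miR-669n in 15. One of these alternatives, within slide 3, rests on a single E16 array. Signal over background limits all this: the lowest signals well above background were 7.43 to 11.7 per array, near the values of miR-669n and miR-466g.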
